A study of Mus musculus with 8 samples.

Results

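RNA sequencing compared 3 libraries of mouse embryonic fibroblasts (MEFs) grown with 2 µM RHPS4 with 3 libraries of untreated MEFs (0 µM). RHPS4 is a small molecule that binds G-quadruplexes, stacked structures that guanine-rich nucleic acid can form, and the study asked what it does to mitochondria and to the nuclear transcriptome. Every nuclear gene with at least 10 counts in each of these 6 libraries was described, which gave 11819 of the 24460 features in the count table. The choice used no fold change or p, but since the 2 µM libraries count towards it, a weakly expressed gene that fell could drop out. At the limit, the 153 genes with a smallest count of 10 had a median log2 fold change of -0.13 and the 192 tested genes just outside, with a smallest count of 9, had one of -0.09. Of the genes left out, 2451 nuclear genes were still tested, and 3 of them rose and 10 fell.

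All 8 libraries of the series came from wild type MEFs that were subconfluent and kept in DMEM with glucose, glutamine, pyruvate and serum at ambient oxygen. The other 2 libraries had 10 µM RHPS4 and enter here only where values are set side by side. The labels give more than a single treatment time without saying which was used for RNA-Seq, and they name neither the mouse strain nor whether replicates were separate cultures, so p-values measure the spread between these libraries, which may be technical.

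The lists used here follow a few transcriptional programmes. Hypoxia-inducible factor (HIF) is destroyed by oxygen-dependent prolyl hydroxylases and, when stable, turns on genes of glycolysis, mitophagy and blood vessel growth. FoxO factors, held out of the nucleus by insulin and AKT signalling, turn on genes of quiescence, autophagy and cell death, while interferon-stimulated genes are driven by a complex that holds STAT2 and IRF9, and immediate early genes follow growth factor and stress kinases within minutes. The aryl hydrocarbon receptor (AhR) is a ligand-activated factor that induces drug-metabolising enzymes, and YAP with TEAD and MRTF with SRF are factors that respond to cell adhesion and actin tension.

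The 0 µM libraries held 10455965, 21057338 and 26688121 counts and the 2 µM libraries 11391061, 12183639 and 17066448, so that 3 counts, taken as the detection floor, correspond to between 0.112 and 0.287 CPM (counts scaled to the same library size of 1000000) over the 8 libraries. Features of the mitochondrial genome took 13.2 to 14.4% of the counts at 0 µM and 7.40 to 8.26% at 2 µM, and the nuclear genes described here took 85.3 to 86.4% and 91.4 to 92.2%. One untreated library, 0 µM replicate 1, stood apart. Its median absolute log2 deviation from its group was 0.177, against 0.0807 to 0.113 in the other libraries of both groups, and its profile correlated slightly better with 2 µM replicate 1 (r = 0.9915 across genes, which are not independent replicates) than with the other 0 µM libraries (0.9904 and 0.9901). Counts over the lists are therefore also given without it.

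The cells matched their label. The summed level of 14 fibroblast markers was 14695 to 15190 CPM at 0 µM and 13360 to 13559 CPM at 2 µM. Of these markers, Lum was at only 0.725 to 1.38 CPM at 0 µM and 0.488 to 0.88 CPM at 2 µM. Col3a1, Pdgfrb, Dcn and Postn fell (edgeR adjusted p = 0.030, 0.0115, 0.0221 and 0.0420), and none of those tested rose. Markers of 6 other cell types summed to far less, with 6 macrophage and leukocyte markers at 23.0 to 24.2 and 18.0 to 20.8 CPM and 6 epithelial markers at 2.87 to 3.29 and 3.03 to 4.40 CPM. The endothelial, myoblast, pluripotent and neural lists each stayed at or below 5.18 CPM in the 0 and 2 µM libraries. No marker was at 0 in all libraries, and Ptprc, the pan-leukocyte marker, was at 0.674 to 1.14 CPM at 0 µM and 0.534 to 0.88 CPM at 2 µM. In bulk RNA a smaller number of cells of one type and less RNA per cell cannot be told apart.

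Most genes stayed within a narrow band at 2 µM. The median log2 fold change over the 11819 genes was -0.0044, with the 5th percentile at -0.45 and the 95th at 0.30, and the median standard error (SE) was 0.102. With edgeR's quasi-likelihood test and Benjamini-Hochberg adjusted p under 0.05, 213 genes rose (1.8% of those described, and 1.51% of all 14296 genes tested) and 354 fell (3% and 2.65%). Scaling by total counts in place of TMM, which keeps the lower mitochondrial share of the treated libraries in the scale, turned this split to 1059 that rose and 275 that fell, and moved the median of all genes described by 0.08 on the log2 scale. The stricter rule for a differentially expressed gene (DEG), an adjusted p under 0.01 and a change of more than 1.5-fold, was met by 16 rising genes (0.135%, and 0.119% of all tested) and 48 falling genes (0.406% and 0.378%), or by 25 and 34 with scaling by total counts. The 3 treated libraries lay above all 3 untreated ones for 14.5% of genes and below them for 13.8%, and for every DEG the groups did not overlap.

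**Figure D1:**
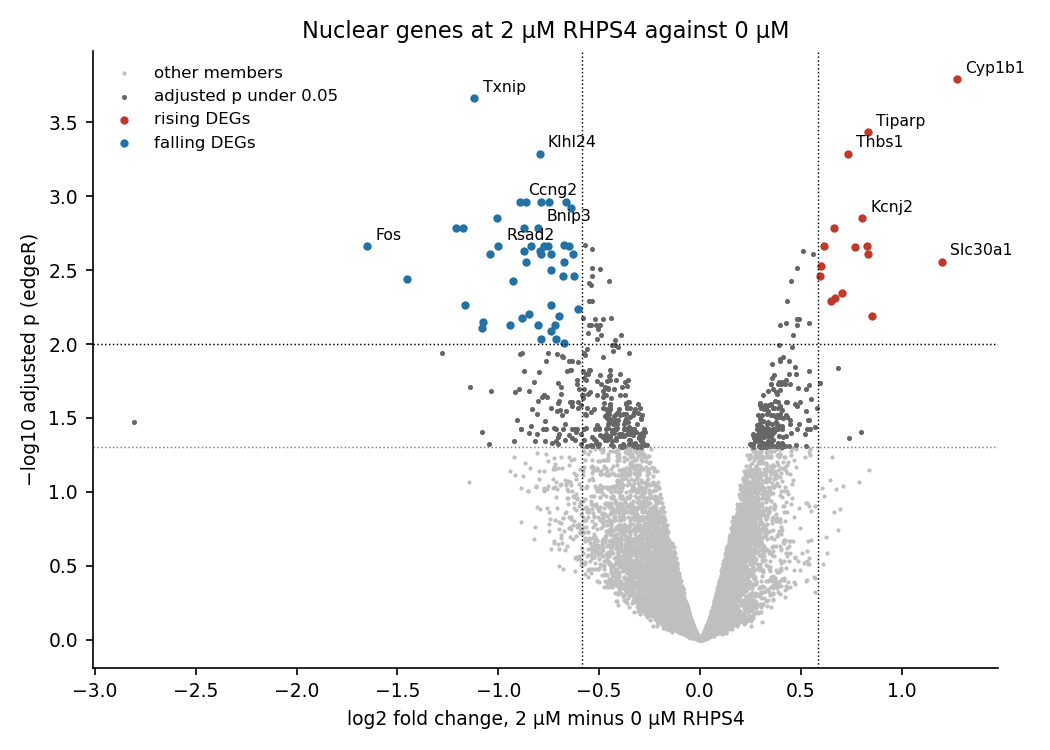
Each point is 1 of the 11819 nuclear genes, with the log2 fold change at 2 µM against 0 µM on the horizontal axis and -log10 of the adjusted p on the vertical axis. Dotted lines mark adjusted p values of 0.05 and 0.01 and a fold of 1.5, and 48 falling DEGs stand against 16 rising ones.

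The calls depended on which libraries entered. Leaving out 2 µM replicate 2 left 2 rising and 3 falling DEGs, while leaving out 0 µM replicate 1 gave 27 and 106. Only Cyp1b1, Tiparp, Txnip and Klhl24 were DEGs in each of the 8 fits that left out a library. At adjusted p under 0.05, all 16 rising DEGs and 36 of the 48 falling ones passed in each of these fits. With the replicate number as a block, 11 of the 16 and 33 of the 48 were still DEGs, and all 64 kept an adjusted p under 0.05.

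**Figure D2:**
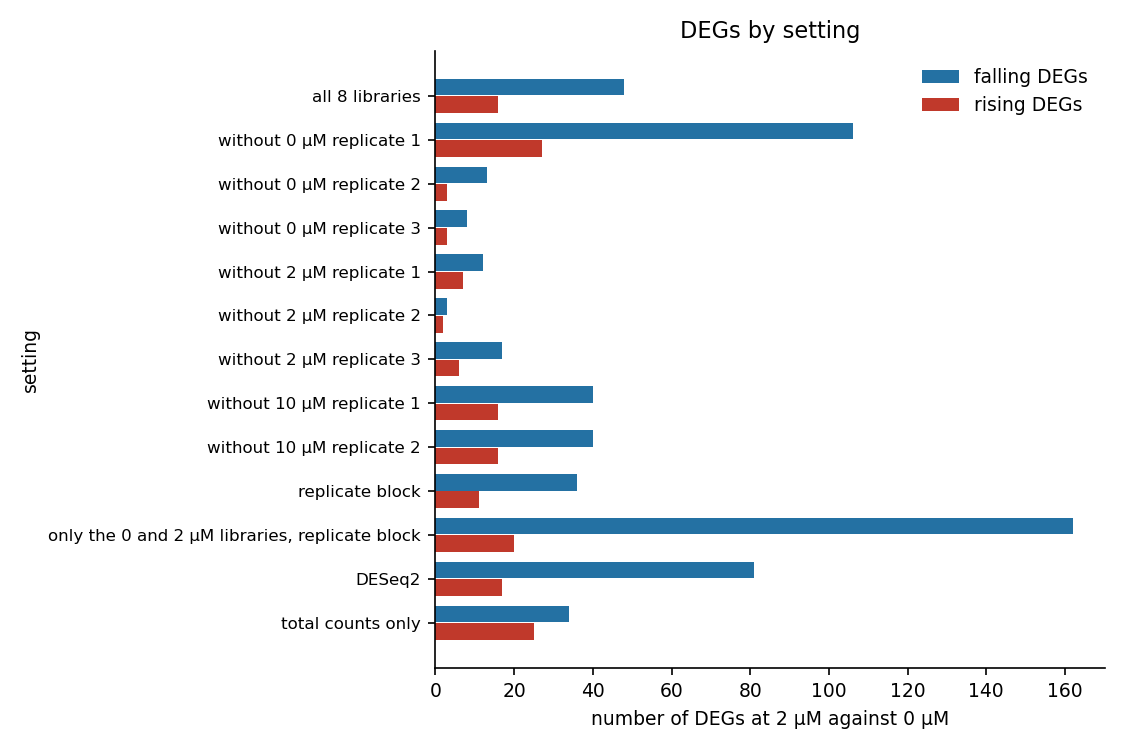
Bars give the number of rising and falling DEGs at 2 µM against 0 µM with all 8 libraries and under other processing choices, from 0 upwards. The counts are 16 and 48 as reported, and range from 2 and 3 without 2 µM replicate 2 to 27 and 106 without 0 µM replicate 1 among the fits that leave out a library, with 162 falling DEGs in the blocked fit of the 6 libraries alone.

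HIF targets had the highest share of falling genes among the 20 lists. Of 35 measured genes for HIF subunits and for HIF targets outside glycolysis, 19 fell (54.3%) and none rose, 31 had a fold change below 0, and the 2 µM libraries lay below all untreated ones for 25. The list's median log2 fold change was -0.45, against -0.0044 over all genes described. Without 0 µM replicate 1, 22 fell and 1 rose, and without 2 µM replicate 2, 7 fell. The replicate block left 17, and scaling by total counts 18, with 1 that rose.

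Bnip3 encodes an outer mitochondrial membrane receptor that delivers mitochondria to autophagy. It had 117, 98.1 and 118 CPM at 0 µM and 62.2, 66.4 and 62.5 CPM at 2 µM, so that the groups were far apart, with a log2 fold change of -0.80 (SE 0.0929, adjusted p = 0.00163). The 250 bases before its start hold a CACGTG, which contains the HIF core motif ACGTG on both strands and is shown in capitals. The sequence is on the minus strand of GRCm38.p6 (the mm10 build) at chr7:138909507-138909756, written 5′ to 3′, and like those further on comes from the RefSeq promoter table.
Bnip3: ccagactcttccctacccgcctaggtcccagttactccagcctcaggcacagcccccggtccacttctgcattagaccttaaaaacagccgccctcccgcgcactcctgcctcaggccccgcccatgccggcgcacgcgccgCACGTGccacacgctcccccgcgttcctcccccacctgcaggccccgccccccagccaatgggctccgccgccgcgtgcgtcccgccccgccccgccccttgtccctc

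Egln3, one of the prolyl hydroxylases that mark HIF for destruction and itself a HIF target, went from 9.45, 13.4 and 11.99 CPM to 6.35, 6.93 and 5.35 CPM. Its log2 fold change was -0.94 (SE 0.148, adjusted p = 0.00747). Adm, which encodes the vasodilator peptide adrenomedullin, fell by 0.74 on the log2 scale (SE 0.109, adjusted p = 0.00544), from 13.6, 15.5 and 16.6 CPM to 9.43, 8.80 and 9.45 CPM. Vegfa, the main growth factor for blood vessels, had 102, 94.6 and 104 CPM untreated and 71.8, 69.2 and 71.8 CPM treated, a log2 fold change of -0.50 (SE 0.0667, adjusted p = 0.0031). The groups were separate for each of these genes, and the DEGs of the list were Bnip3, Egln3, Adm, Ndrg1, Ero1l, Mxi1 and Bhlhe40.

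Pdk1, a kinase that inhibits pyruvate dehydrogenase, fell from 127, 110.2 and 124 CPM to 89.9, 81.4 and 82.9 CPM. Car12, a carbonic anhydrase of the cell surface, and Bnip3l, a second mitophagy receptor, had adjusted p values of 0.0375 and 0.0495 and of 0.0659 and 0.0723 with the replicate block. Hif1a, the oxygen-regulated subunit itself, showed overlapping groups at 230.3, 209 and 204 against 219, 203 and 206 CPM (log2 fold change -0.03, adjusted p = 0.82).

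Glycolysis moved less. Of 24 glycolytic genes, 5 fell (20.8%) and none rose, with a median log2 fold change of -0.17. They were the glucose transporter Slc2a1, hexokinase Hk1, Gpi1, the phosphofructokinase Pfkp and Pgm2. Pfkp, the platelet-type isoform of the committed step, fell from 58.1, 56.8 and 57.9 CPM to 38.1, 37.5 and 35.5 CPM (log2 fold change -0.64, SE 0.068, adjusted p = 0.00121). Slc2a1 had 145, 132 and 145 CPM untreated and 109, 103 and 101 CPM treated (adjusted p = 0.0111). Ldha, which reduces pyruvate to lactate, and Pgk1 had overlapping groups, with log2 fold changes of -0.06 and 0.02 (adjusted p = 0.827 and 0.946). Gpi1 had an adjusted p of 0.0655 with the block, and 8 members fell and 1 rose without 0 µM replicate 1. Without 0 µM replicate 3 or 2 µM replicate 2, 1 member fell. Without 0 µM replicate 2, 2 µM replicate 1 or 2 µM replicate 3, 2 members fell.

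The FoxO list, which joins FoxO targets and genes of quiescence, had 38 measured members, of which 12 fell (31.6%), 6 as DEGs, and none rose. Its median log2 fold change was -0.34 and the treated libraries lay below the untreated ones for 20 members. Without 0 µM replicate 1, 18 fell and 1 rose, and without 2 µM replicate 2, 4 fell. The fallers included Klhl24, Ccng2, Sesn3, Trp53inp1, Pik3ip1 and Bmf, all DEGs, and Insr, the insulin receptor, Bcl2l11, Pdk4, Map1lc3b, Foxo3 and Abca1.

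Klhl24, a kelch-family adaptor of a ubiquitin ligase, had 60.2, 60.2 and 63.8 CPM at 0 µM and 33.7, 36.8 and 35.7 CPM at 2 µM (log2 fold change -0.80, SE 0.0721, adjusted p = 0.000514). Ccng2, an atypical cyclin of resting cells, had 72.9, 72.8 and 88.0 CPM and 43.5, 43.0 and 39.9 CPM, a log2 fold change of -0.89 (SE 0.0905, adjusted p = 0.00109). Neither gene had a treated library near an untreated one. Pik3ip1, an inhibitor of phosphatidylinositol 3-kinase, fell from 23.0, 19.8 and 20.2 CPM to 10.8, 12.5 and 12.7 CPM. Bmf and Bcl2l11, both BH3-only proteins that start apoptosis, fell by 0.71 and 0.57 on the log2 scale (SE 0.117 and 0.105, adjusted p = 0.0093 and 0.0176).

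Of the factors themselves, Foxo3 fell, from 30.4, 32.6 and 31.1 CPM to 24.1, 20.8 and 18.7 CPM (log2 fold change -0.58, SE 0.0981, adjusted p = 0.0115). Foxo1 was low and variable, at 3.74, 5.997 and 6.71 against 5.20, 4.48 and 4.64 CPM, with overlapping groups (adjusted p = 0.423). Sesn3, a sestrin that restrains mTORC1, spread more at 0 µM (30.4, 36.7 and 43.8 CPM) than at 2 µM (19.4, 21.9 and 23.4 CPM), and its adjusted p was 0.0093. Cited2, a list member whose product competes with HIF for its coactivator, lay the other way, at 28.9, 35.1 and 32.7 against 37.0, 38.5 and 37.4 CPM, without passing the test (adjusted p = 0.246). Map1lc3b, which encodes the autophagosome protein LC3B, had an adjusted p of 0.0548 with the replicate block.

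Txnip, the thioredoxin-interacting protein that restrains glucose uptake, had the smallest adjusted p among the falling genes. It had 133, 110.0 and 123 CPM untreated and 57.7, 51.3 and 59.0 CPM at 2 µM, and its log2 fold change of -1.12 (SE 0.0877, adjusted p = 0.000217) stayed between -1.18 and -1.05 whichever library was left out. Of the 7 measured genes of the list of Txnip and its arrestin relatives, 2 fell and none rose. The second was Arrdc4, at 11.3, 9.07 and 8.93 against 5.02, 5.87 and 5.94 CPM (log2 fold change -0.76, SE 0.133, adjusted p = 0.013), whereas the relative Arrdc3 had overlapping groups (adjusted p = 0.707). Without 0 µM replicate 1, 2 members still fell. Arrdc4 did not pass without 2 µM replicate 1 or 2 µM replicate 2 (adjusted p = 0.063 and 0.0675). The 250 bases before the start of Txnip, plus strand, chr3:96557707-96557956, hold 1 copy of the FoxO motif GTAAACA, in capitals.
Txnip: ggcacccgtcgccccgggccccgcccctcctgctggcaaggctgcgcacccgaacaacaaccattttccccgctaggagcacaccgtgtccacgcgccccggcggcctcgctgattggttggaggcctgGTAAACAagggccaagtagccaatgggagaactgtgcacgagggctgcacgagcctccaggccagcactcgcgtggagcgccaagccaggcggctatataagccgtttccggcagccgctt

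Interferon-stimulated genes had the next highest share of falling genes. Of 62 measured genes, 24 fell (38.7%), 4 as DEGs (Ifit1, Rsad2, Ifi44 and Cxcl10), and none rose, 58 had a fold change below 0, and 45 had all treated libraries below all untreated ones. The median log2 fold change was -0.41. The count was 25 without 0 µM replicate 1, 21 with the replicate block and 4 without 2 µM replicate 2. The summed level of the 6 macrophage and leukocyte markers was also lower at 2 µM, as given above. Most of that difference lay in Cd14, at 16.8, 14.03 and 14.7 against 11.8, 11.8 and 9.99 CPM (adjusted p = 0.0528), while Cd68, Adgre1, Ptprc and Lyz2 overlapped between the groups. Csf1r was also lower in every treated library, at 1.04, 1.63 and 1.07 against 0.704, 0.814 and 1.01 CPM. It was not among the genes described. The markers' part in the result was not tested.

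Ifit1, which binds viral RNA that lacks a proper cap, had 57.3, 47.0 and 47.5 CPM untreated and 32.3, 29.8 and 32.4 CPM at 2 µM (log2 fold change -0.68, SE 0.0888, adjusted p = 0.00277). Rsad2, whose product viperin makes a chain-terminating nucleotide, had 10.4, 11.4 and 9.69 CPM and 4.67, 5.46 and 5.47 CPM (log2 fold change -1.002, SE 0.123, adjusted p = 0.00218). Ifi44 had 20.2, 20.5 and 20.01 CPM and 12.6, 12.8 and 13.7 CPM (log2 fold change -0.63, SE 0.0816, adjusted p = 0.00247). The groups were clearly apart for all 3 genes. The 250 bases before the start of Ifit1, plus strand, chr19:34640639-34640888, hold 2 copies of the interferon-stimulated response element (ISRE, searched as GAAANNGAAA), both on the reverse strand, in capitals.
Ifit1: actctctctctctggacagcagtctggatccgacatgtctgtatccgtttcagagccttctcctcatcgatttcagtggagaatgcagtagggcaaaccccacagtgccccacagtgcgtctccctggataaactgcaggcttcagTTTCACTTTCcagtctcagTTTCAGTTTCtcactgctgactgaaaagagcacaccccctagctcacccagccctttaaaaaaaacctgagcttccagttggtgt

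Among the factors that drive these genes, Stat2 fell, from 37.6, 37.9 and 41.0 CPM to 25.9, 25.6 and 30.1 CPM (log2 fold change -0.51, SE 0.101, adjusted p = 0.0221). Irf9, its partner in that complex, lay lower in every treated library without passing the test, with a log2 fold change of -0.30 (adjusted p = 0.091). Irf7, an amplifier of interferon production, had 8.20, 7.63 and 7.34 against 5.82, 4.65 and 6.66 CPM (adjusted p = 0.122). Isg15, the ubiquitin-like modifier, had 7.78, 6.10 and 9.13 against 2.64, 2.69 and 4.76 CPM, a wide spread, and a log2 fold change of -1.14 (SE 0.341, adjusted p = 0.0857). Gbp3, Xaf1, Iigp1 and Lgals3bp were called without the block and had adjusted p values of 0.0515, 0.0507, 0.0737 and 0.067 with it.

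Immediate early genes did not move as a whole. Of 29 measured genes, 7 fell (24.1%), 5 as DEGs, and none rose, and the list's median was -0.11. The 7 were Fos, Fosb, Nr4a1, Nr4a2, Klf2, Gem and Rgs2. Between 5 and 8 fell when a library was left out.

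Fos, a subunit of the AP-1 transcription factor, had the largest fold change of the list, from 8.10, 9.07 and 8.30 CPM to 2.12, 2.12 and 3.63 CPM (log2 fold change -1.65, SE 0.204, adjusted p = 0.00218). Its relative Fosb had 7.16, 10.4 and 9.01 CPM and 2.38, 3.42 and 3.86 CPM (log2 fold change -1.45, SE 0.202, adjusted p = 0.00363). Both genes were measured from few reads, with the smallest library at 24 and 27 counts. As for every falling DEG, no treated library reached the lowest untreated one. The orphan nuclear receptors Nr4a1 and Nr4a2 fell by 1.01 and 1.17 on the log2 scale (SE 0.112 and 0.135, adjusted p = 0.00141 and 0.00163), and Rgs2, which shortens G protein signals, fell by 0.87 (SE 0.0993, adjusted p = 0.00163).

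Egr1, Jun and Myc, which answer the same signals, had overlapping groups. Egr1 had 58.6, 94.9 and 88.9 CPM untreated and 59.4, 77.8 and 78.7 CPM treated, with 0 µM replicate 1 the lowest of the 6 (adjusted p = 0.603). Jun and Myc had log2 fold changes of -0.08 and -0.02 (adjusted p = 0.672 and 0.968). Of 19 feedback regulators of receptor kinases, only Dusp1, a phosphatase of MAP kinases, fell (log2 fold change -0.38, SE 0.082, adjusted p = 0.0297), with an adjusted p of 0.0515 under the replicate block. Of the 19, 4 fell without 0 µM replicate 1, and without any 1 of the other 0 and 2 µM libraries none did. Klf2, a flow- and stress-responsive factor, had an adjusted p of 0.0394 and of 0.0687 under the block.

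The AhR list was small. Of 12 measured genes, 3 rose (25%) and none fell, the list's median log2 fold change was 0.09, and the same number rose in each of the 8 fits that left out a library. The 3 were Cyp1b1, Tiparp and Nqo1, all DEGs. Without 0 µM replicate 1, 1 member fell as well. Cyp1a1, the best-known target, did not reach 10 counts in every library and was not among the genes described. It was still tested and did not pass at adjusted p under 0.05.

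Cyp1b1, a cytochrome P450 of polycyclic hydrocarbons and oestrogens, had 104, 93.1 and 97.5 CPM untreated and 225, 221 and 266 CPM at 2 µM. This was the smallest adjusted p of the genes described, with a log2 fold change of 1.28 (SE 0.0877, adjusted p = 0.000161) that stayed between 1.19 and 1.32 whichever library was left out. Tiparp, an ADP-ribosyltransferase that represses AhR, had 91.4, 79.4 and 85.9 CPM and 154, 153 and 149 CPM (log2 fold change 0.83, SE 0.0703, adjusted p = 0.000367). Nqo1, a quinone reductase that answers both AhR and NRF2, had 48.8, 38.3 and 38.3 CPM and 70.6, 69.5 and 71.7 CPM (log2 fold change 0.77, SE 0.0958, adjusted p = 0.0022).

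Each of the 3 genes had treated libraries far above the untreated ones. Ahr itself had overlapping groups at 17.9, 19.8 and 17.5 against 19.0, 17.9 and 18.6 CPM (adjusted p = 0.972), and its partner Arnt spread widely, at 37.3, 68.4 and 76.3 against 30.2, 39.3 and 50.7 CPM (adjusted p = 0.172). Just outside the rule on counts, Aldh3a1, an aldehyde dehydrogenase of the same list with a smallest count of 9, had 0.934, 0.991 and 0.913 CPM and 2.56, 2.28 and 2.08 CPM, and was the only DEG among the tested nuclear genes left out (log2 fold change 1.26, SE 0.206, adjusted p = 0.00917). The 250 bases before the start of Cyp1b1, minus strand, chr17:79715062-79715311, hold 1 copy of the AhR core motif GCGTG on the reverse strand, in capitals.
Cyp1b1: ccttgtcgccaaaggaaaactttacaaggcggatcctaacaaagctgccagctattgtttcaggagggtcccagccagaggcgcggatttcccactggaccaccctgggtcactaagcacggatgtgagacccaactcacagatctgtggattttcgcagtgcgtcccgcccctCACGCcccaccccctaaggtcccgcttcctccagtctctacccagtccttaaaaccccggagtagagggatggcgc

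Part of the list of YAP and TAZ targets rose. Of 33 measured genes, 7 rose (21.2%), namely Ctgf, Cyr61, Ankrd1, Amotl2, Ajuba, Crim1 and Thbs1, and 2 fell (6.06%), Tgfb2 and the tissue factor gene F3. The list's median was -0.01 and changed sign with the scaling, at 0.07 with total counts. Between 5 and 8 rose when a library was left out, and the number that fell ranged from 0 to 5, with 5 when 0 µM replicate 1 was absent.

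Thbs1, the matricellular protein thrombospondin 1, had 479, 449 and 438 CPM and 741, 762 and 769.5 CPM (log2 fold change 0.73, SE 0.0667, adjusted p = 0.000514). Ctgf and Cyr61, 2 secreted proteins of the same CCN family and the usual reporters of YAP, rose by 0.61 and 0.67 on the log2 scale (SE 0.0761 and 0.097, adjusted p = 0.00218 and 0.00486). Cyr61 went from 141, 158 and 142 CPM to 238, 249 and 216 CPM. Treated and untreated libraries were separate for each of them, and also for Ajuba, a LIM protein that holds the LATS kinases, at 62.7, 70.2 and 65.4 against 94.3, 107 and 99.8 CPM.

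Transcripts of the coactivators did not follow. Yap1 had overlapping groups (log2 fold change -0.05, adjusted p = 0.787), and Wwtr1, which encodes TAZ, lay lower in every treated library without passing the test, at 268, 250.1 and 259.9 against 231, 225 and 225 CPM (adjusted p = 0.11).

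Contractile genes controlled by SRF gave 3 that rose among 31 measured (9.68%), Acta2, Tagln and Myl9, and 1 that fell, Mylk, with a median log2 fold change of 0.05. Acta2, the smooth muscle actin of activated fibroblasts, had 164, 154 and 145 CPM and 240.1, 223 and 219.6 CPM (log2 fold change 0.56, SE 0.0724, adjusted p = 0.00247), just under the fold of 1.5. Tagln, which encodes the actin-binding protein transgelin, had 84.4, 65.8 and 69.8 CPM and 124, 115 and 118 CPM (log2 fold change 0.70, SE 0.101, adjusted p = 0.00451). Both genes had every treated library well above the untreated ones. Mylk, the kinase of myosin light chain, went the other way, from 14.8, 14.2 and 14.4 CPM to 11.2, 10.0 and 11.2 CPM (adjusted p = 0.0374, and 0.0515 with the replicate block). Actb and Srf had log2 fold changes of 0.13 and 0.31 and overlapping groups (adjusted p = 0.433 and 0.174). Scaling by total counts called 6 of the list as rising, and 7 rose and 2 fell without 0 µM replicate 1. Without any 1 of the other 0 and 2 µM libraries, 2 rose and none fell.

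Genes of elastic fibres and the TGF-beta matrix went down more often than up. Of 25 measured genes, 6 fell (24%), namely Tgfbi, Fbn2, Loxl2, Postn, Igsf10 and Dcn, and 1 rose. The median log2 fold change was -0.23, and between 3 and 9 fell when a library was left out, 9 without 0 µM replicate 1. With the replicate block 4 fell, Loxl2 and Postn being lost at adjusted p values of 0.059 and 0.0568.

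Fbn2, a fibrillin of developing elastic fibres, had 81.0, 102 and 109 CPM and 48.5, 51.7 and 59.3 CPM (log2 fold change -0.88, SE 0.111, adjusted p = 0.00236), while Fbn1, the adult fibrillin, had overlapping groups (log2 fold change -0.02, adjusted p = 0.886). Tgfbi, an adhesion protein induced by TGF-beta, had 89.9, 87.8 and 97.2 CPM and 51.2, 52.99 and 59.1 CPM (log2 fold change -0.75, SE 0.0769, adjusted p = 0.00109). Fbn2 and Tgfbi were clearly lower in all treated libraries. Eln, for elastin, was low in all libraries, at 1.66, 1.69 and 1.43 against 2.29, 1.47 and 1.31 CPM, with overlapping groups (adjusted p = 0.912).

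The 20 lists together covered 572 of the genes described, and they left most changes unnamed. Of the 213 genes that rose, 18 were in a list, and of the 354 that fell, 82 were. Among DEGs, 9 of the 16 rising and 28 of the 48 falling genes were in a list.

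The 7 rising DEGs in no list were of mixed kinds. Slc30a1, the zinc exporter of the plasma membrane and a target of the zinc sensor MTF1, had 2.49, 3.37 and 2.70 CPM and 5.91, 6.77 and 7.19 CPM (log2 fold change 1.20, SE 0.158, adjusted p = 0.00277), from as few as 24 counts. Adh7, an alcohol and retinol dehydrogenase, had 23.9, 27.1 and 23.9 CPM and 45.9, 48.6 and 38.8 CPM (log2 fold change 0.83, SE 0.102, adjusted p = 0.00218). Kcnj2, an inward-rectifier potassium channel, had 47.6, 40.04 and 39.7 CPM and 74.8, 70.4 and 75.4 CPM (log2 fold change 0.80, SE 0.0889, adjusted p = 0.00141). All treated libraries were higher for these genes. The other 4 were Plaur, the urokinase receptor, Tnfrsf12a, the receptor of the cytokine TWEAK, the keratin gene Krt80 and Dfna5, which encodes gasdermin E, with log2 fold changes from 0.60 to 0.85.

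Falling DEGs in no list included receptors and signalling proteins. Notch3, a Notch receptor of mural cells and fibroblasts, had 9.03, 10.5 and 10.0 CPM and 3.70, 5.22 and 3.98 CPM (log2 fold change -1.21, SE 0.14, adjusted p = 0.00163). Agtr2, the type 2 angiotensin receptor, had 14.3, 14.03 and 15.3 CPM and 7.76, 8.64 and 8.02 CPM (log2 fold change -0.84, SE 0.102, adjusted p = 0.00218). Ralgds, an activator of the GTPase Ral downstream of Ras, had 63.6, 68.3 and 63.8 CPM and 40.4, 41.7 and 41.4 CPM (log2 fold change -0.66, SE 0.0688, adjusted p = 0.00109). In each of these genes the highest treated library was below the lowest untreated one. Adamts7, a metalloproteinase of cartilage matrix, and Gas7, a growth-arrest gene, fell by 0.67 and 0.79 on the log2 scale (SE 0.081 and 0.0817, adjusted p = 0.00212 and 0.00109). AW551984 and Calcoco1 had log2 fold changes of -0.65 and -0.77 (SE 0.0789 and 0.0948, adjusted p = 0.00218 for each).

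**Figure D3:**
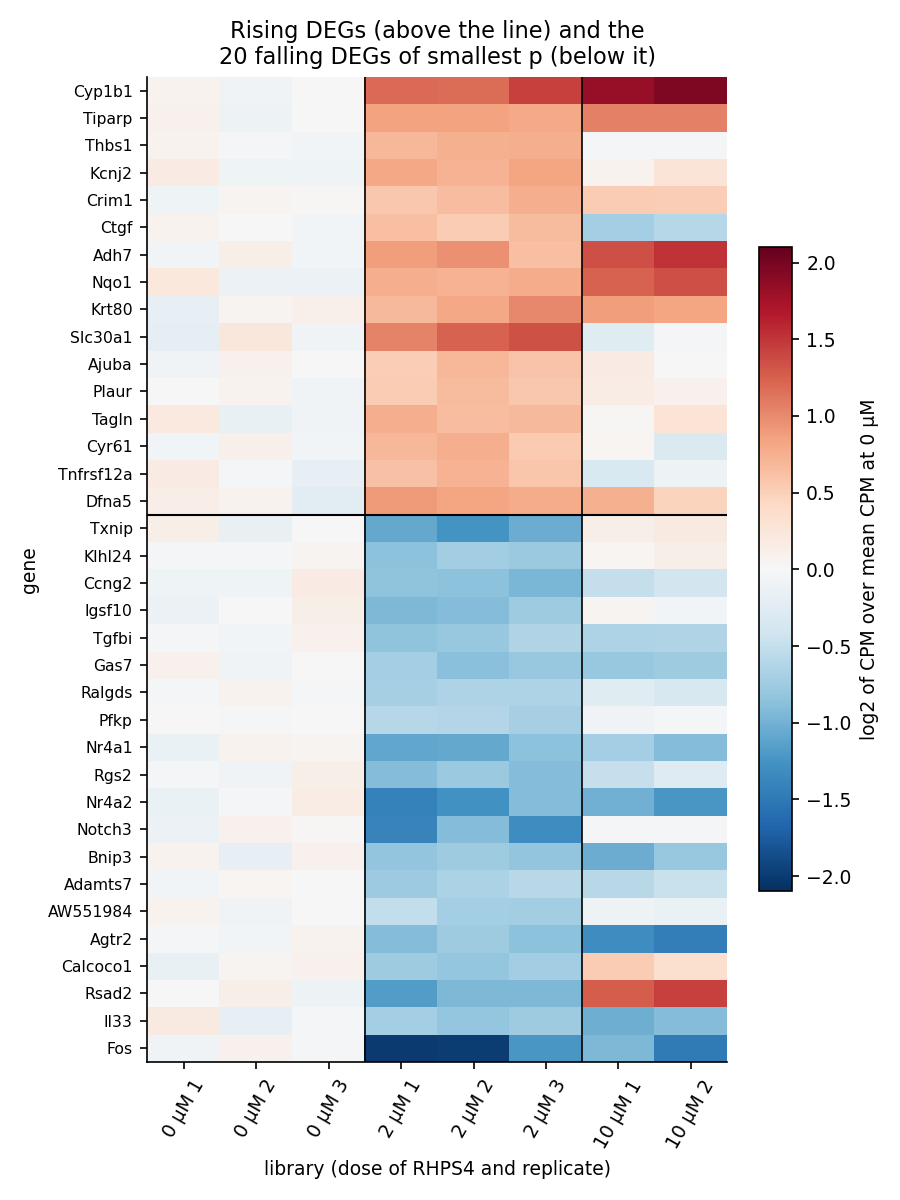
Rows are the 16 rising DEGs and the 20 falling DEGs with the smallest p, columns are the 8 libraries, and colour gives the log2 ratio of a library's CPM to the mean CPM of the 0 µM libraries. The 3 columns at 2 µM hold 1 colour in each block of genes, while the 2 columns at 10 µM differ from gene to gene.

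Length, GC content and level of the DEGs were set beside those of all genes described, with no test. Transcripts of rising and falling DEGs had a median length of 3675.5 and 4056.5 bases, against 3513 over all genes described, and a median GC content of 49.5 and 49.7%, against 49.4%. Their median level in untreated cells was 50.4 and 25.3 CPM, against 31.2 CPM.

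Promoter sequences were searched for short motifs in windows of 300 bases, 250 before and 50 after the start, on both strands. The RefSeq table held windows for 9413 of the 11819 genes, which matched 9410 of its symbols with 12019 windows, out of 32851 windows in all. The ISRE was in 12 of the 20 windows of interferon-stimulated genes that fell (60%), against 2.9% of the windows of all genes described and 3.44% of all windows. ACGTG, which overlaps CACGTG, was in 10 of the 20 windows of HIF targets that fell (50%), against 25.6% and 19.6%. GCGTG, searched as the other HIF core motif, was in 11 of the 20 (55%), against 51.2% and 32.4%, so it was hardly more frequent than over all genes described. A match is a description of the letters in the window and was not tested as a site. No share was taken for list members that did not fall, so these shares cannot set the falling members apart from their lists.

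GTAAACA was in 4 of 53 windows of falling DEGs (7.55%) and 1 of 12 of FoxO list members that fell (8.33%), against 2.48% of the windows of all genes described. GCGTG was in 58.3% of the windows of rising DEGs, 52.8% of those of falling DEGs and 51.2% of all those described. GGAATG, the TEAD motif, was in 3 of 12 windows of rising DEGs (25%), against 12.1%, and the CArG box of SRF was in none of the windows of rising or falling DEGs, against 1.33%, although Ctgf and Tagln were not in the table. A G-quadruplex pattern of 4 runs of at least 3 G with loops of 1 to 7 bases was in 6 of 12 windows of rising DEGs (50%) and in 30.2% of those of falling DEGs, against 27.6% of all described. That pattern was added after results had been seen, and 12 windows give a coarse share.

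Levels at 10 µM were set beside those at 2 µM for the same genes. Both comparisons use the same untreated libraries, and the comparison of 10 with 2 µM uses the 2 µM libraries through which the DEGs were chosen. At 10 µM against 0 µM, 892 of the genes described rose (7.55%) and 985 fell (8.33%), and 12.6% were higher and 14.3% lower at 10 than at 2 µM. Of the 16 rising DEGs, Cyp1b1, Adh7 and Nqo1 were higher still at 10 than at 2 µM, 9 were lower and 4 did not pass that test. Of the 48 falling DEGs, Agtr2, Adm and Bhlhe40 were lower still, 30 were higher at 10 than at 2 µM and 15 did not pass.

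The programmes behaved differently at the higher dose. The 10 µM libraries had 56 of the 62 interferon-stimulated genes raised against 0 µM and none lowered, with a median log2 fold change of 0.88, where the 2 µM libraries had 24 lowered. Ifi44, at 64.4 and 63.5 CPM, and Ifit1, at 115 and 117 CPM, were above both other doses. The HIF list was lowered at both doses, with 22 of 35 genes down and 3 up at 10 µM and a median of -0.42. Of its members, Bnip3 was at 54.0 and 64.2 CPM at 10 µM, close to its 2 µM level, whereas Vegfa was at 104 and 102 CPM, next to its untreated values.

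Of 38 FoxO list genes, 18 were higher at 10 than at 2 µM and 3 lower. Against 0 µM, 6 of them rose and 3 fell at 10 µM, with a median log2 fold change of 0.09. Txnip, from its own list, stood at 133 and 139 CPM. Of the 10 YAP and SRF genes that rose at 2 µM, 9 were lower at 10 than at 2 µM, Crim1 being the exception. Acta2 stood at 158 and 149 CPM and Thbs1 at 449 and 449.8 CPM, both inside the range of their untreated values, and Ctgf at 24.4 and 26.4 CPM, below them. Over the lists, 10 of 33 YAP genes and 13 of 31 SRF genes were lower at 10 than at 2 µM. Fos and Nr4a1, at 4.40 and 3.02 CPM and at 10.5 and 9.14 CPM, remained below their untreated values at 10 µM.

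**Figure D4:**
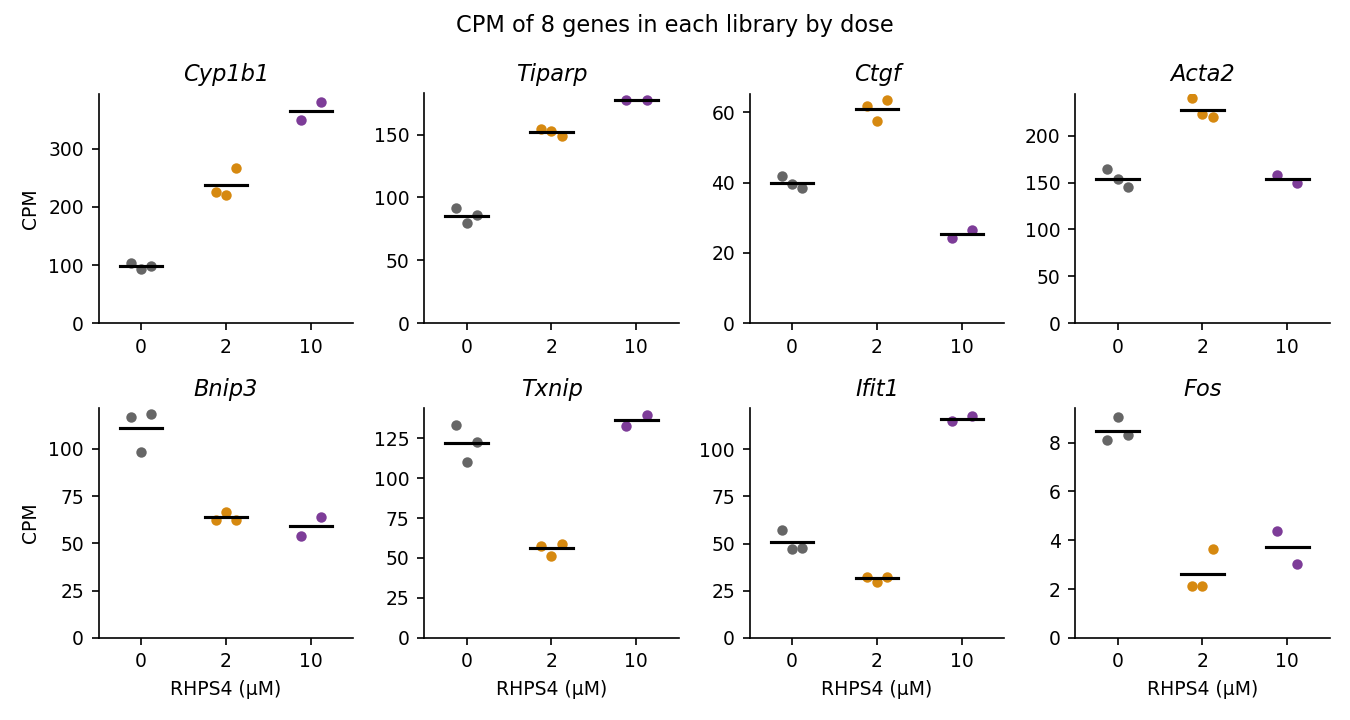
Each panel gives the CPM of a gene in every library (points) and the group mean (bars) at 0, 2 and 10 µM RHPS4, with 3, 3 and 2 libraries, for Cyp1b1, Tiparp, Ctgf, Acta2, Bnip3, Txnip, Ifit1 and Fos. Cyp1b1 and Tiparp are higher at both doses, Bnip3 and Fos lower at both, Acta2 is high and Txnip low at 2 µM alone, and Ctgf and Ifit1 change sides between the doses.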

How the data were processed

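Per the labels, total RNA of MEFs was depleted of rRNA and sequenced as stranded libraries. The authors deposited a table of counts per gene for each library, made with Trim Galore, cutadapt, STAR 2.5.2a and featureCounts on mm10, per the submitters' processing notes. The deposited values are unnormalized whole-number read counts.

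Counts of all 8 libraries were fitted together with edgeR 4.0.16 (TMM scaling, filterByExpr, glmQLFit and glmQLFTest, dose as a factor) under R 4.3.3, which left 14296 genes, and p-values were adjusted over all of them by Benjamini-Hochberg. The standard error is the absolute log2 fold change divided by the square root of F. CPM values use TMM-scaled library sizes. Genes sharing reads with close copies, such as Ifit3 and Ifit3b, are uncertain. Named genes are all rising DEGs, the 20 falling DEGs with the smallest p and every treated library below every untreated one, list members and neighbours of the count threshold. The genes described, the lists and the tests were chosen with earlier results of these data known. The closest pair of libraries, 0 µM replicates 2 and 3, differed beyond counting noise (chi-square per degree of freedom 3.90), so all libraries were kept. Same-numbered 0 and 2 µM libraries deviated together, with correlations of 0.438, 0.153 and 0.380, against -0.398 to 0.142 for differently numbered ones, and since each same-numbered pair was over 0.1 the replicate numbers in the labels were treated as pairs in an alternative fit. That limit does not set the pairs apart, since 0 µM replicate 2 with 2 µM replicate 3 also passed it, at 0.142. Alternatives were other scalings, other filters, DESeq2 1.42.0, the 6 libraries alone, the block, leaving out each library and, chosen after seeing the data, a GC correction with and without the block and the block on the 6 libraries. The fits were tested on simulated data. Promoter windows came from RefSeq (GRCm38.p6). Figures used matplotlib 3.10.9. Single-gene results for some list members are not reported here.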

Additional observations from a re-analysis of the deposited data

How the results depend on the processing

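Rising and falling DEGs numbered 16 and 48. Scaling by total counts gave 25 rising DEGs and 1059 genes that rose in place of 213, and dropping the minimum fold gave 28 rising DEGs. DESeq2 called 81 falling DEGs. The 6 libraries alone with the replicate block gave 162 falling DEGs, 1642 genes that rose and 1478 that fell in place of 354. Leaving out a library gave 2 to 27 rising DEGs, 3 to 106 falling DEGs, 21 to 1112 genes that rose and 49 to 907 that fell, in each case lowest without 2 µM replicate 2 and highest without 0 µM replicate 1. The cause of these shifts was not tested. The other scalings, the filters on low counts, the GC correction and the block stayed within 1.5 times of the reported counts.

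With 8 libraries and the replicate block, 11 rising and 36 falling DEGs were called, and 161 genes rose and 293 fell. Of 114 named genes with an adjusted p under 0.05, 100 kept it under the block and 51 without 2 µM replicate 2, and none changed direction under any alternative. The 14 lost under the block include Ccne1, with an adjusted p of 0.0604. Scaling by total counts moved the median of all genes described by 0.08 on the log2 scale, and it raised the share of rising calls. With 3 libraries a group and counts as low as 10 in a library, small changes of weakly expressed genes were not detectable.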

Other observations

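Lists of growth and stress were close to still at 2 µM. None of 30 genes of the integrated stress response, of 23 of cholesterol synthesis, of 25 of mitosis or of 24 of the machinery of mitochondrial DNA rose or fell, with median log2 fold changes of 0.03, -0.04, 0.08 and 0.13. The cholesterol median changed sign to 0.04 with scaling by total counts, under which 4 stress, 2 mitotic and 3 mitochondrial genes rose. At 10 µM, which shares the untreated libraries, 27 of the 30 stress genes rose and 18 of the 23 cholesterol genes fell. Among 21 p53 targets with at least 10 counts in each library, Plk2, a polo-like kinase, was the only call (log2 fold change 0.38, SE 0.0831, adjusted p = 0.0338). Cdkn1a, the cell cycle inhibitor p21 and a tested gene of the same list, had a smallest count of 9 and fell, from 2.49, 4.16 and 5.28 CPM to 0.793, 1.30 and 2.38 CPM (log2 fold change -1.41, SE 0.331, adjusted p = 0.0398). Among 21 NRF2 targets Nqo1 rose and none fell, while DESeq2 and the replicate block each had 1 that fell. Without 0 µM replicate 1, the numbers that rose or fell were 6 and 1 for the stress list, 0 and 3 for cholesterol, 4 and 0 for mitosis, 5 and 0 for the mitochondrial machinery, 2 and 0 for p53 and 2 and 3 for NRF2. The p53 list had no call without any 1 of the other 0 and 2 µM libraries.

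Genes of DNA replication leaned upwards, with 26 of 29 fold changes above 0, 19 with all treated libraries above all untreated ones and a median of 0.19, but 2 passed the test, Ccne1 and Ccne2, the cyclins of S phase entry. Ccne2 had 77.6, 60.2 and 62.3 CPM untreated and 99.4, 88.0 and 93.0 CPM treated (log2 fold change 0.49, SE 0.0998, adjusted p = 0.0246). The count was 15 with scaling by total counts, 16 without 0 µM replicate 1 and 0 without any 1 of the other untreated or 2 µM libraries. Of 76 nuclear genes of the respiratory chain, 66 had a fold change above 0 with a median of 0.11, and the only call was Ndufv3, a subunit of complex I, which fell by 0.38 on the log2 scale (SE 0.0733, adjusted p = 0.0194). Without 0 µM replicate 1, 16 of the respiratory chain genes rose and 1 fell. Without any 1 of the other 0 and 2 µM libraries none of them rose or fell, so the call of Ndufv3 was lost. Of 14 fibroblast chemokine and cytokine genes, Ptgs2 rose and Cx3cl1 and Il33 fell, Il33, an alarmin kept in the nucleus, from 87.1, 68.4 and 74.7 CPM to 46.8, 43.5 and 45.8 CPM. In this list 2 rose and 3 fell without 0 µM replicate 1, and without any 1 of the other 0 and 2 µM libraries 1 fell and 0 or 1 rose, with 0 without 0 µM replicate 2, 0 µM replicate 3 or 2 µM replicate 2.

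Genes named for the processing of ribosomal RNA, taken by the start of their symbols (Utp, Rrp, Nop, Noc, Nol, Exosc and Polr1) after values had been seen and therefore without a test, gave 18 that rose of 52 (34.6%) and none that fell, with a median log2 fold change of 0.26. Nol3 and Nol4 share only the letters. Polr1b, a large subunit of RNA polymerase I, had 95.5, 91.8 and 90.5 CPM untreated and 129, 124 and 122 CPM at 2 µM (log2 fold change 0.43, SE 0.0632, adjusted p = 0.0051). Between 1 (without 2 µM replicate 2) and 31 (without 0 µM replicate 1) rose when a library was left out, and none rose and 5 fell at 10 µM.

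Lars2, which encodes the mitochondrial leucyl-tRNA synthetase and was named after its values were seen, had 513, 147 and 85.6 CPM in untreated libraries and 48.7, 21.2 and 35.5 CPM at 2 µM. Its log2 fold change was -2.81 (SE 0.622, adjusted p = 0.0338), with a wide spread among untreated libraries. Whether these counts came from Lars2 mRNA was not tested.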
